A study of Mus musculus with 6 samples.

Results

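Lpl, Apoe, Fabp1 and Nr0b2 are the 4 genes of lipid handling described here, out of 456 genes measured in 22154 single cells of mouse kidney. They were chosen by their counts summed per library and cell class, compared between furosemide and vehicle, with results of these cells known. All mice were C57BL/6J (strain entry C57BL/6), 16 weeks old, and ate a gel diet with 104 µmol sodium per kcal for 1 week. The diet of 1 group carried furosemide at 70 mg/kg body weight and that of the other group carried vehicle, with 3 samples each. No transgene, deletion or second agent is listed for either group. Furosemide is a loop diuretic that blocks NKCC2, the salt cotransporter through which the thick ascending limb takes up sodium and which Slc12a1 encodes. Kidneys were dissociated by force and collagenase, and single-cell mRNA was captured on BD Rhapsody beads. Libraries 1, 3 and 5 were vehicle and libraries 2, 4 and 6 were furosemide.

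Lipoprotein lipase, encoded by Lpl, hydrolyses the triglyceride of circulating lipoproteins, so that fatty acids can enter cells. Apolipoprotein E, encoded by Apoe, is the lipoprotein ligand that uptake receptors recognise, and macrophages are among its known sources. Fabp1 encodes the liver-type fatty acid-binding protein, an intracellular carrier known from hepatocytes and proximal tubule. Nr0b2 encodes SHP, a nuclear receptor without a DNA-binding domain that represses other receptors and is a known target of the bile acid receptor FXR, encoded by Nr1h4. The proximal tubule and the thick ascending limb are both known to burn fatty acids for the energy of sodium transport.

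The promoter sequences of Nr0b2 and Fabp1 are shown because these members were highest on opposite sides of the nephron, Nr0b2 in distal and Fabp1 in proximal classes. Each run is the 250 bases before the RefSeq start site in GRCm38.p6, 5′ to 3′ on the plus strand, which is the strand of both genes. The Nr0b2 window is chr4:133553126-133553375 and the Fabp1 window is chr6:71199629-71199878, both upstream of the first exon. Capitals mark matches to the nuclear receptor hexamer AGGTCA, to the hexamer TCAAGG, to the TATA box TATAAA or to the direct repeat AGGNCANAGGNCA, searched on both strands. These motifs were picked after the sequences had been seen.
Nr0b2: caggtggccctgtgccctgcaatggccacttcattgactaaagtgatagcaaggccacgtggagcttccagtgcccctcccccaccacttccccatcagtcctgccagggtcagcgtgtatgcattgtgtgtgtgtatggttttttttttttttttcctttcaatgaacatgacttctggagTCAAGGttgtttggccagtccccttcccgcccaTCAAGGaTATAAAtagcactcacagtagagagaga
Fabp1: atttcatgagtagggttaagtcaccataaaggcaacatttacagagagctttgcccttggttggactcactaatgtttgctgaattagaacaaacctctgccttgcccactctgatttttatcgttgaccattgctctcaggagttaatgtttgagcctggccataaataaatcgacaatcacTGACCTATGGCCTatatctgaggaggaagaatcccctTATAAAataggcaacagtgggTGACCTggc
Counted back from the start site, Nr0b2 held TCAAGG at -68 to -63 and at -35 to -30, and TATAAA at -28 to -23. Fabp1 held TGACCT, the reverse complement of AGGTCA, at -67 to -62 and at -9 to -4, with TATAAA at -30 to -25. The first of these TGACCT matches lay inside TGACCTATGGCCT, a match of the direct repeat at -67 to -55. Among 32851 RefSeq promoter windows of this length, AGGTCA was present on either strand in 14.02%, TCAAGG in 12.46%, TATAAA in 12.37% and the direct repeat in 0.3379%, or 111 windows. A match is a run of letters, and binding was not measured.

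The authors sorted the cells into 15 classes, whose names are used here as deposited. Total counts per library ran from 4819988 to 7635509, with medians of 1073 to 1539.5 counts per cell. In 9 of the 15 classes the marker list with the highest summed level was that of the class's own name in both groups, and the exceptions were DCT, DCT2, OMCD principal, AIC, Podocytes/Glom and the class the authors called mystery cells. Levels are CPM, a gene's counts relative to all panel counts of its class in a library, and are scaled by TMM unless called plain. Genes are not compared with each other, because their lengths were not used. Nothing says that replicates were separate animals, so errors cover the spread between samples only, which may be technical. Of the cell barcode numbers, 196 occurred in more than 1 library, on 392 cells.

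In the vehicle libraries each gene had its own map of the nephron. Lpl had counts in all 15 classes and was highest in TAL, at 4033 ± 655 CPM (SD, n = 3). DCT came next at 66.5% of that level, and its libraries lay below those of TAL without overlap. DCT, DCT2, Proximal s2/s3 and Podocytes/Glom followed at 2680.2, 2249.6, 2178 and 1869 CPM, and neighbours in this order overlapped. A gap followed, since Proximal s1/s2/s3 was at 733 ± 44.3 CPM, or 18.2% of TAL, and did not overlap with Podocytes/Glom. The lowest levels were in Thin Limb, CCD principal and mystery cells, at 30.3, 26.7 and 10.2 CPM. Lpl thus spanned the late proximal tubule, the loop and the distal convoluted tubule, with little in the thin limb between them and in the collecting duct.

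Nr0b2 was highest in TAL and DCT, and far lower or absent in the other distal classes. It was at 442 ± 7.13 CPM in TAL, 295 ± 51.9 in DCT and 78.6 ± 14.2 in AIC (SD, n = 3), and none of these neighbours overlapped. DCT2, BIC and OMCD principal followed at 68.9, 45.3 and 32.6 CPM with overlapping libraries. CCD principal was at 4.88 CPM. CNT had 0 counts in vehicle, where 3 counts would have been 4.17 CPM, and 5 counts with furosemide, all in library 4. The 3 proximal classes were between 0.696 and 1.19 CPM, and Podocytes/Glom and mystery cells had 0 counts in all 6 libraries. A count of 3 over a group would have allowed up to 42.3 CPM in mystery cells and 15.1 CPM in Podocytes/Glom of vehicle, and 32.5 and 15.5 CPM with furosemide. Such limits cover counting error only.

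Apoe and Fabp1 lay elsewhere. Apoe was highest in Immune, at 900 ± 627 CPM (SD, n = 3), followed by Proximal s1/s2 at 28.6% and Proximal s1/s2/s3 at 20.5% of that level. Neighbours in this order overlapped. Proximal s1/s2/s3, at up to 284.5 CPM, lay below Immune, at 325.7 CPM or more. Apoe had 0 counts in AIC and OMCD principal. Fabp1 was at 18.0 ± 5.40 CPM in Proximal s1/s2 and 13.1 ± 2.21 CPM in Proximal s1/s2/s3, which overlapped, and at 2.07 ± 1.91 CPM in Proximal s2/s3, which did not overlap with the class before it. Elsewhere Fabp1 had 1 count in TAL and 0 counts in 11 classes. Among the proximal classes, Lpl was thus highest and Fabp1 lowest in Proximal s2/s3.

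**Figure D1:**
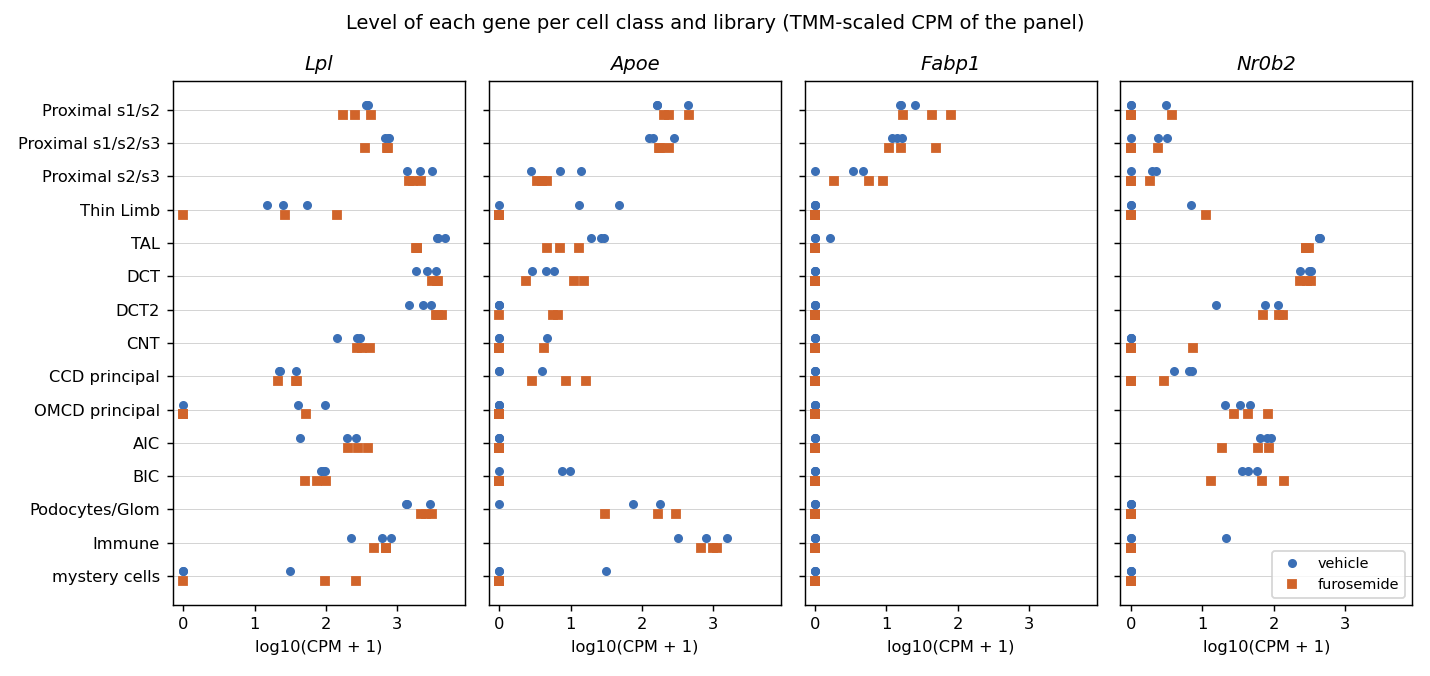
Level of each gene in 15 cell classes, as log10(TMM-scaled CPM + 1), with 1 point per library (circles vehicle, squares furosemide). Lpl and Nr0b2 were highest in TAL, Apoe in Immune and Fabp1 in the first 2 proximal classes, and a point at 0 is a library with no count.

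The panel genes whose class pattern was most like each member were found by Pearson's r of log2(CPM + 1) over the 15 classes in vehicle, which share libraries and are no independent samples. For Nr0b2 they included Casr (r = 0.86), the calcium-sensing receptor gene, and Gpx6 (r = 0.84). For Fabp1 they were Slc6a19, Slc5a2 and Spp2, each with r = 0.97. Slc6a19 and Slc5a2 encode carriers of neutral amino acids and of glucose in the proximal tubule. For Apoe they were Trf (r = 0.82), C3 (r = 0.80) and Pdgfb (r = 0.76). For Lpl the nearest were weaker, Ccne2 (r = 0.63), Egf (r = 0.60) and Gpx6 (r = 0.58). Lpl and Nr0b2 shared their highest class, but r between them was 0.32.

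With furosemide, Lpl was lower in TAL and higher in DCT2. In TAL, Lpl was at 3730.1, 4784 and 3584 CPM in vehicle libraries 1, 3 and 5 and at 1928, 1836 and 1917 CPM in furosemide libraries 2, 4 and 6. All 3 furosemide libraries were below all 3 vehicle libraries, and they lay within a narrow range. The means were 4033 ± 655 and 1894 ± 50.4 CPM (SD, n = 3), a log2 change of -1.09 ± 0.16 (SE). In DCT2, named as the late distal convoluted tubule and with connecting tubule markers as its highest list, Lpl was at 2275, 3009 and 1465 CPM in vehicle and at 3789.9, 3549.6 and 4232 CPM with furosemide. Here every furosemide library was above every vehicle library. The means were 2249.6 ± 773 and 3857 ± 346 CPM (SD, n = 3), a log2 change of 0.77 ± 0.23 (SE). Whether the changes in TAL and DCT2 differ was not tested.

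These contrasts chose the genes, so the values are a description with no test. For the background, edgeR called 4.73% of 317 genes tested in TAL, either direction, at a Benjamini-Hochberg adjusted p under 0.05, with 3.15% lower and 1.58% higher. It called 1.42% of 211 genes in DCT2, all of them higher. In TAL 11% of genes had all furosemide libraries lower than all vehicle libraries, and in DCT2 9.48% had all of them higher. Over the 4 members and 15 classes, 20 of 60 pairs passed the filter on low counts and 40 did not. Of the 20, 2 were called, Lpl and Nr0b2 in TAL, both lower, where 1.45% of all 3724 pairs of gene and class were called, 0.698% lower and 0.752% higher. Nothing is read from that count, since the choice of members used it. The log2 change was above 0 in 12 and below 0 in 8 of the 20 pairs, and its median over all genes tested was 0.0013 in TAL and 0.0153 in DCT2. Leaving out furosemide library 2, furosemide library 4 or vehicle library 3 ended the call of Lpl in TAL, at log2 changes of -1.07, -1.05 and -0.90. Among single omissions, the call of Nr0b2 in TAL was kept only without furosemide library 6, and the 5 other omissions gave -0.59 to -0.52. Without vehicle library 3, Lpl in DCT2 was called, at 1.05.

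**Figure D2:**
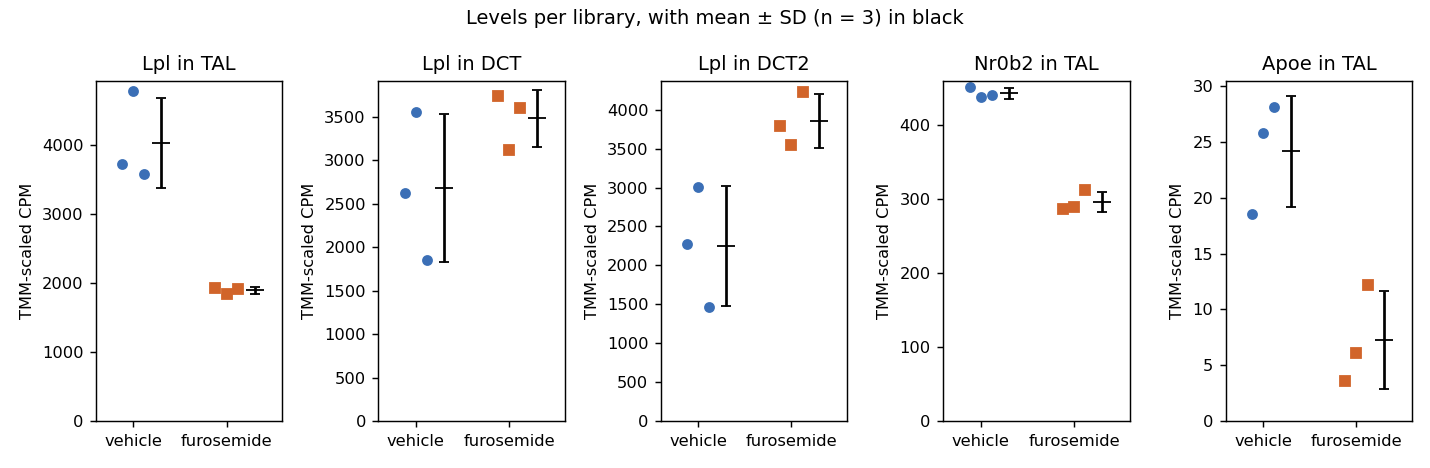
Levels in TMM-scaled CPM per library for Lpl in TAL, DCT and DCT2, Nr0b2 in TAL and Apoe in TAL, with mean ± SD of 3 libraries in black. In TAL the furosemide libraries sit below the vehicle libraries for all 3 genes, for Lpl in DCT2 they sit above, and for Lpl in DCT the groups overlap.

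The remaining classes with Lpl gave smaller or less even differences. In DCT, Lpl was at 2628, 3558 and 1855 CPM in vehicle and 3743, 3118 and 3602 CPM with furosemide. These libraries overlapped, with a log2 change of 0.38 ± 0.22 (SE). In Proximal s2/s3, the other class of high level, the groups also overlapped, at 2178 ± 863 and 1778 ± 346 CPM (SD, n = 3). The other tested classes, from Podocytes/Glom at 0.47 ± 0.38 and AIC at 0.74 ± 0.53 to Proximal s1/s2 at -0.43 ± 0.31 (log2 change ± SE), overlapped as well. In the authors' second clustering, of 22 clusters, 3 were named DCT. Lpl was higher in all furosemide libraries of DCT sub3, at 2146 ± 412 against 4074 ± 164 plain CPM (SD, n = 3). In DCT sub1 and DCT sub2 the groups overlapped, at 2585 against 3316 and at 4173 against 3895 plain CPM. Lpl was also higher in all furosemide libraries of the cluster AIC sub2, at 303, 384 and 142 plain CPM in vehicle and 871, 1179 and 410.3 with furosemide. In the cluster named AIC the groups overlapped, at 42.6 against 23.4 plain CPM. In a fit on classes regrouped from that clustering, the log2 change of Lpl in the AIC class was 1.36, and it was not called. That class is not the cluster named AIC alone. The share of all genes so separated in these clusters is not given here. In the AIC class of the first clustering, distal convoluted tubule markers were higher in all furosemide libraries, at 7273-16209.5 and 18797-29496 plain CPM. Their part in the Lpl level was not tested.

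Lpl transcripts in TAL were spread over most cells rather than carried by a few. At the cells' own depth 94.0 ± 2.55% of TAL cells in vehicle and 82.9 ± 1.97% with furosemide held a count (SD, n = 3). CCD principal, where Lpl was near its lowest, held a count in 3.36% and 3.73% of cells. Median depth was 1485 and 1531 counts per cell in TAL and 1332 and 1269 in CCD principal. Each cell was then thinned to 500 counts, which left out 735 vehicle and 548 furosemide cells of all classes below that depth. The shares in TAL became 77.8 ± 3.28% and 55.5 ± 1.65%, and those in CCD principal 0.983% and 1.46%. In thinned TAL cells the median was 2 Lpl counts in each vehicle library and 1 in each furosemide library. Cells with 3 counts or more made up 32.2%, 39.5% and 32.2% of TAL in vehicle and 10.7%, 10.8% and 8.86% with furosemide. In thinned DCT2 cells that share was 17.6%, 15.6% and 12.5% in vehicle and 32.4%, 33.3% and 33.0% with furosemide, so the upper part of the distribution shifted in both classes.

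Nr0b2 was lower with furosemide in TAL, while its groups overlapped in DCT. In TAL it was at 450.2, 436.8 and 439.4 CPM in vehicle and at 286.5, 288.7 and 311.5 CPM with furosemide, without overlap. The means were 442 ± 7.13 and 296 ± 13.8 CPM (SD, n = 3), a log2 change of -0.58 ± 0.10 (SE). In DCT it was at 311.9, 236.7 and 336.4 CPM in vehicle and at 234.1, 330.1 and 290.03 CPM with furosemide. These overlapped, with a log2 change of -0.04 ± 0.20 (SE), and the difference between TAL and DCT was not tested. In DCT2 the libraries overlapped too, at 68.9 ± 51.2 and 107 ± 33.9 CPM (SD, n = 3). A count of Nr0b2 was found in 40.8 ± 3.54% of TAL cells in vehicle and 32.2 ± 2.59% with furosemide, and in 17.4 ± 0.573% and 12.3 ± 0.825% after thinning (SD, n = 3). In Proximal s1/s2, 1 of 1523 vehicle cells and 1 of 1443 furosemide cells held one, at median depths of 785 and 823 counts.

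The thick ascending limb has a part that carries claudin-10 and a part that carries claudin-16, which is needed for paracellular uptake of divalent cations. Cells of TAL were split by counts of Cldn10 and Cldn16, a division chosen after these values were seen. In vehicle, Lpl was lowest in cells with only Cldn16, higher in cells with both and highest in cells with only Cldn10, at 2180 ± 465, 3581 ± 595 and 6491 ± 405 plain CPM (SD, n = 3). With furosemide the same order was seen at lower levels, 851 ± 126, 1837 ± 96.4 and 2817 ± 542 plain CPM. All furosemide libraries were below all vehicle libraries in each of the 3 subsets. Nr0b2 was also lower in each, at 419.5 against 176, 416 against 311 and 591 against 269 plain CPM in the same order. The subsets are parts of the same libraries and so do not add to the result in TAL. The share of all genes so separated in them is not given here. The groups differed in the size of these subsets: cells with only Cldn10 numbered 860 in vehicle and 212 with furosemide, those with both 1415 and 1035, and those with only Cldn16 344 and 250. Cldn16 itself was at 3145 ± 126 plain CPM in vehicle TAL and 6002 ± 1036 with furosemide (SD, n = 3). Since Cldn16 counts cut the subsets, a lower level per cell and a changed mix of cells cannot be told apart by this split.

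**Figure D3:**
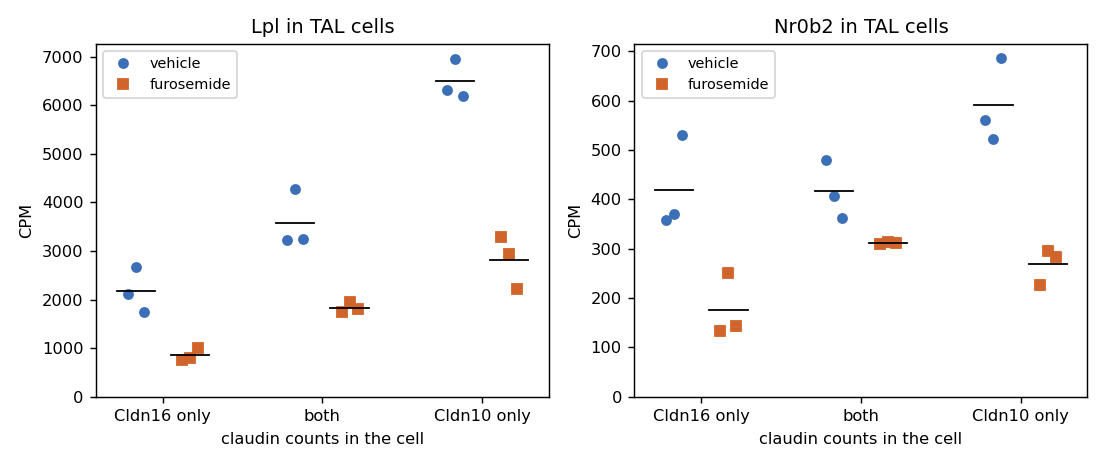
Plain CPM of Lpl (left) and Nr0b2 (right) in TAL cells with counts of Cldn16 only, of both claudins or of Cldn10 only, with 1 point per library and a bar at the mean of 3 libraries. Furosemide libraries (squares) lie below vehicle libraries (circles) in each subset, and Lpl is highest in cells with only Cldn10.

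Lpl and Nr0b2 were set side by side within TAL cells thinned to 500 counts. Cells with a count of Nr0b2 held a mean of 2.65, 2.91 and 2.29 Lpl counts in vehicle and 1.32, 1.21 and 1.06 with furosemide. Cells without Nr0b2 held 2.05, 2.32 and 1.98 in vehicle and 0.858, 0.931 and 0.897 with furosemide. In TAL, Lpl was thus somewhat higher in cells with Nr0b2 in all 6 libraries, and lower with furosemide in both kinds of cell. In DCT this order held in 3 of 6 libraries: cells with Nr0b2 held fewer Lpl counts in vehicle library 5 (0.90 against 1.07) and in furosemide libraries 4 (1.39 against 1.69) and 6 (1.62 against 1.68).

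Markers of other cell types were summed in the same cells. In TAL the 8 thick ascending limb markers of the panel, out of 11 listed, summed to 435624-503363 plain CPM in vehicle and 489668-551275 with furosemide, which overlap. Slc12a1, the defining marker, was at 91724 ± 4370 and 94844 ± 5355 plain CPM (SD, n = 3). The 19 proximal markers (27 listed) summed to 5831-7206 and 5656-6589.6 plain CPM, also overlapping. The 6 thin limb markers (9 listed, Cldn10 among them) were lower in all furosemide libraries, at 31232-32442 and 22489-24993 plain CPM. The 6 connecting tubule markers (8 listed) were higher in all furosemide libraries, at 1119-1139 and 1219-1515 plain CPM. The 6 distal convoluted tubule markers (7 listed) overlapped, at 31316-35319 and 27515-38723 plain CPM. On that list Calb1 and Wnk1 were higher in all furosemide libraries, at 40.1 against 118 and 2836 against 4863 plain CPM, while Slc12a3, Trpm6 and Ppp1r1a overlapped. The part of these markers in the TAL differences was not tested. In DCT, Slc12a1 was at 385 ± 76.0 and 155 ± 39.1 plain CPM, against Slc12a3, the thiazide-sensitive cotransporter gene, at 100633 ± 11964 and 101746 ± 9349 plain CPM. Slc12a1 was thus low in DCT, but the thick ascending limb list as a whole was not. Umod, another of its markers, was at 111805 ± 25150 and 108038 ± 20648 plain CPM there. The 8 markers summed to 193616-256036 plain CPM in vehicle DCT and 178573-232728 with furosemide, the highest list of that class in both groups. Their part in the Lpl and Nr0b2 levels of DCT was not tested. In DCT2 the thick ascending limb markers summed to 39631-50794 and 41748-46538 plain CPM, which overlap. The thin limb markers there were higher in all furosemide libraries, at 1420.4-1734 and 2001-2529 plain CPM. The distal convoluted tubule markers of DCT2 overlapped as a sum, at 163665-192644 and 177893-193011 plain CPM. On that list Trpm6 and Calb1 were higher in all furosemide libraries, at 1196 against 1619 and 72118 against 80214 plain CPM. Wnk1 was lower in all of them, at 21777 against 19613.5 plain CPM, while Slc12a3 and Ppp1r1a overlapped. The part of these markers in the Lpl level of DCT2 was not tested.

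Apoe gave no separation of the groups where it was highest. In Immune it was at 325.7, 804 and 1569 CPM in vehicle and 1004, 671 and 1141 CPM with furosemide. In Proximal s1/s2 it was at 164, 162 and 447 CPM in vehicle and 239, 206 and 461 CPM with furosemide. Both classes overlapped, with log2 changes of 0.04 ± 0.54 and 0.23 ± 0.50 (SE). Without vehicle library 5 these were 0.74 and 0.87, and without furosemide library 6 they were -0.17 and -0.18, so their sign rested on single libraries. The spread was between libraries: vehicle library 5 and furosemide library 6 were the highest of their groups in both classes and in Proximal s1/s2/s3, where the log2 change was 0.12 ± 0.33 (SE). Immune markers in Proximal s1/s2 (6 of 23 listed) summed to 40.8-473 plain CPM in vehicle and 29.7-502 with furosemide. The highest of these sums were in vehicle library 5 and furosemide library 2, and their part in the Apoe level was not tested.

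Within Immune, Apoe was carried by cells with C1qa, a complement gene of macrophages, in a split chosen after the values were seen. Cells with C1qa were at 532, 1024 and 1678 plain CPM in vehicle and 1343, 1017 and 1775 with furosemide. Cells without it were at 112, 0 and 1125 plain CPM in vehicle and 129.7, 131 and 67.6 with furosemide, on 20 and 10 counts in all. The level was lower without C1qa in all 6 libraries, least so in vehicle library 5. A count of Apoe was found in 26.3 ± 10.9% and 30.5 ± 5.26% of Immune cells, and in 16.9 ± 6.78% and 17.2 ± 3.99% of Proximal s1/s2 cells (SD, n = 3). In CCD principal it was found in 0.175% and 1.20% of cells.

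Apoe was low in TAL and lower with furosemide. It was at 18.6, 25.8 and 28.1 CPM in vehicle, from 31, 41 and 37 counts, and at 3.604, 6.11 and 12.2 CPM with furosemide, from 2, 8 and 8 counts. The groups did not overlap, with a log2 change of -1.72 ± 0.48 (SE) that edgeR called only without furosemide library 6, at -2.21, and the share of cells with a count was 3.58 ± 0.689% and 1.02 ± 0.408% (SD, n = 3). After thinning, those shares were 1.24% and 0.467%, near the level of single counts. Immune markers in TAL summed to 31.0-112 plain CPM in vehicle and 17.6-39.1 with furosemide. Endothelial markers (2 of 11 listed) were at 14.2-36.9 and 0-13.6, and fibroblast, mesangial and smooth muscle markers (5 of 10 listed) at 35.3-240.1 and 21.5-33.9 plain CPM, both without overlap. In TAL cells with no count of any of these 13 markers, chosen after the values were seen, Apoe was at 23.7 ± 4.73 plain CPM in vehicle and 6.79 ± 4.08 with furosemide (SD, n = 3), again without overlap.

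Fabp1 rested on few counts, and 1 library stood out. In Proximal s1/s2 it was at 15.2, 24.2 and 14.6 CPM in vehicle and at 42.8, 16.3 and 80.1 CPM with furosemide. The counts behind these were 6, 13 and 7, and 17, 6 and 46. The libraries overlapped, with a log2 change of 1.37 ± 0.62 (SE). In Proximal s1/s2/s3 it was at 13.1, 15.4 and 10.9 CPM in vehicle and 15.1, 9.77 and 48.8 CPM with furosemide, a log2 change of 0.92 ± 0.64 (SE). Without furosemide library 6 that change was -0.11, so its sign rested on this library. A count of Fabp1 was found in 1.62 ± 0.677% of Proximal s1/s2 cells in vehicle and 3.91 ± 2.46% with furosemide (SD, n = 3). The 11 classes with 0 counts allow from 2.52 CPM in DCT to 42.3 CPM in mystery cells of vehicle, and 1.82 and 32.5 CPM with furosemide, at 3 counts over a group.

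In Podocytes/Glom, where the summed markers were highest for the fibroblast, mesangial and smooth muscle list, Lpl was at 2893, 1338 and 1377 CPM in vehicle and 2562, 2179.6 and 3055 CPM with furosemide. The groups overlapped, since vehicle library 1 was above furosemide libraries 2 and 4.

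The classes that supplied each gene's counts differed between the groups. TAL supplied 55.0 ± 5.32% of Lpl counts in vehicle and 19.1 ± 4.32% with furosemide (SD, n = 3). For Nr0b2 the shares were 82.1 ± 3.38% and 54.6 ± 2.83%, and DCT supplied 14.3% and 34.7%. These shares also follow cell numbers, since TAL held 961, 823 and 840 cells in vehicle and 356, 696 and 446 with furosemide, and the authors had equalised the cell numbers of both groups. Over whole libraries, Lpl was at 1958 ± 347 plain CPM in vehicle and 1362 ± 131 with furosemide (SD, n = 3). Nr0b2 was at 143 ± 9.14 and 73.8 ± 15.4, and both genes were without overlap. The share of all genes so separated over whole libraries is not given here, so nothing is read from these separations. Apoe and Fabp1 overlapped, at 74.8 against 68.04 and 3.90 against 8.81 plain CPM. The whole-library level combines the cell numbers of all classes, TAL among them, with the levels in those classes.

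**Figure D4:**
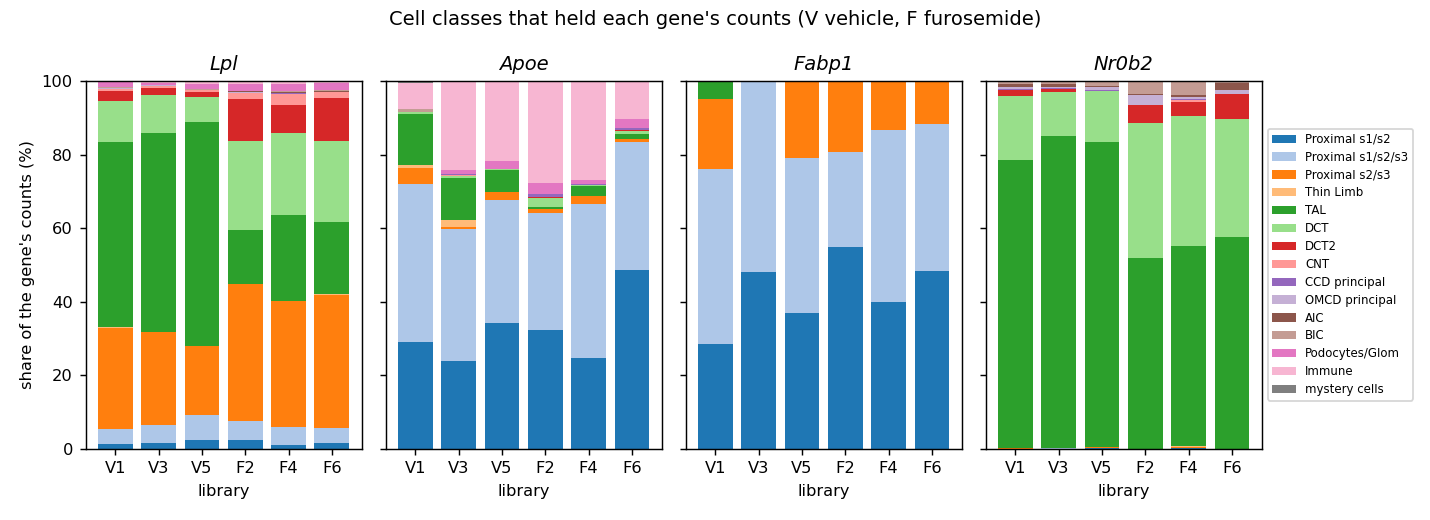
Share of each gene's counts, in percent, that came from each of 15 classes in every library (V vehicle, F furosemide). TAL supplied 55.0% of Lpl and 82.1% of Nr0b2 counts on average in vehicle, and 19.1% and 54.6% with furosemide.

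Of 202 genes on 5 lists of lipid and nuclear receptor biology, the panel held 12 beside the members, and none of the 42 genes of lipoprotein uptake, lipolysis and efflux. Over the classes 101 pairs of list gene and class were tested. edgeR called 0 of them, beside 1.45% of all pairs. At an unadjusted p under 0.05 there were 15, from which nothing is read, since the share over all pairs at that threshold is not given here. DESeq2 called 3, Kl in CCD principal and CNT and Slc27a2 in TAL, out of 146 pairs it called over all genes. The smallest adjusted p by edgeR was 0.0571, for Slc27a2 in TAL. Slc27a2 encodes a fatty acid transporter and activating enzyme, and it was at 140 ± 25.4 CPM in vehicle TAL and 311 ± 105 with furosemide (SD, n = 3), against 9702 to 15717 CPM in the 3 proximal classes of vehicle. In proximal classes it did not pass the test, with log2 changes of -0.06 to -0.03. All furosemide libraries were also above all vehicle libraries in Thin Limb, at 111 against 284.5 CPM, in Podocytes/Glom, at 131 against 265 CPM, and in CCD principal, at 87.6 against 121 CPM. edgeR called none of these. The share of all genes so separated is given above only for TAL and DCT2, so nothing is read from these separations.

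Nr1h4, which encodes the bile acid receptor FXR, was highest in proximal classes, where Nr0b2 was near 0. It was at 3429 ± 746 CPM in Proximal s1/s2 and 808 ± 80.4 CPM in TAL of vehicle (SD, n = 3). In TAL it was at 910.5 ± 238 CPM with furosemide, with overlapping libraries and a log2 change of 0.17 ± 0.20 (SE), while Nr0b2 was lower in the same libraries. Among the other list genes, Acsm2 and Acsm3, of fatty acid activation, and Cyp4b1, of fatty acid hydroxylation, were highest in proximal classes in vehicle. Acsm3 was at 1560.3 CPM in Proximal s2/s3 and 45.8 CPM in Proximal s1/s2/s3. In Proximal s1/s2/s3 their log2 changes were -0.07 ± 0.11, -0.18 ± 0.34 and 0.14 ± 0.14 (SE), and the groups overlapped. In Proximal s1/s2 all furosemide libraries were below all vehicle libraries for Acsm2, at 2634-2905 CPM in vehicle and 2362-2568 with furosemide (log2 change -0.13 ± 0.11, SE). For Cyp4b1 they were above, at 14559-17034 and 17298-19910 CPM (0.20 ± 0.13). Neither was called, and the share of all genes so separated in that class is not given here. Gpam, of glycerolipid synthesis, was at 33.2 against 39.3 CPM in Proximal s1/s2/s3, also overlapping. In TAL the 6 tested genes of the nuclear receptor list had a median log2 change of 0.15, beside 0.0013 over all 317 genes tested.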

How the data were processed

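Single cells of 6 kidney samples were measured with BD Rhapsody, per the labels' protocols. The table the authors deposited holds whole-number counts per cell for 456 panel genes and 22154 cells, 11077 per treatment. Per the file names and headers, doublets and a mixed cluster had been removed and cell numbers equalised. Bowtie2 2.2.9 was used, per the submitters' processing notes. The build and the counting step are not given in the sources used here, nor is it stated if molecules or reads were counted. Treatment, library and class came from the deposited annotation, in which each of the 6 libraries has 1 treatment; it does not say which titled replicate a library is.

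Counts were summed per library and class, each class with at least 12 cells in every library, and fitted with edgeR 4.0.16 in R 4.3.3 (TMM, filterByExpr by group, robust glmQLFit and glmQLFTest, no block). A call needs an adjusted p (Benjamini-Hochberg, all genes tested in that class) under 0.05. The fit was tested on simulated data. DESeq2 1.42.0 was an alternative. Thinning drew 500 counts per cell. The text names the 4 members in every class, per member the 3 panel genes with the highest r, and genes called from the 5 lists or described from them after their values were seen. Results that need withheld items are not reported here. Members and lists were chosen with earlier results of these data known.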

Additional observations from a re-analysis of the deposited data

Results flagged for a closer look

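The log2 change of Lpl with furosemide was higher in DCT2 than in TAL by 1.86, because all 3 furosemide libraries lay below all 3 vehicle libraries in TAL and above them in DCT2. The difference itself was not tested.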

How the results depend on the processing

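No called result changed sign under the alternatives run. Among the 16 other pairs of member and class, 23 of 226 values had the other sign, such as Fabp1 in Proximal s1/s2/s3 (0.92) without furosemide library 6 (-0.11) or without libraries 5 and 6 (-0.20). Leaving out 1 library at a time gave log2 changes of -1.17 to -0.90 for Lpl in TAL, -0.63 to -0.52 for Nr0b2 in TAL, -2.21 to -1.42 for Apoe in TAL and 0.59 to 1.05 for Lpl in DCT2. The same omissions gave 0 to 3 called pairs of member and class (2 with all libraries), 0 to 1 called pairs of lipid list gene and class (0), 19 to 62 called pairs over all genes (54) and 3 to 21 called genes in TAL (15). Lpl in TAL was no longer called in cells with Cldn10 and no Cldn16 (-0.85). Nr0b2 in TAL was not called with the number of cells as library size (-0.67), in cells with Cldn16 and no Cldn10 (-1.19) or the reverse (-0.78), or without libraries 5 and 6 (-0.63), the last 3 chosen after the data were seen. Lpl in DCT2 became called with library size alone (0.92), no filter (0.82) and thinned cells (0.79). Members called numbered 1 with the number of cells as library size and 1 without libraries 5 and 6. Lipid list pairs called numbered 3 with DESeq2 and 1 with thinned cells, and all pairs 146 with DESeq2. Genes called in TAL numbered 8 with the number of cells as library size, 32 with DESeq2, 24 with thinned cells and 6 in each claudin subset. Per cell rather than per count, Fabp1 in Proximal s1/s2 over Proximal s1/s2/s3 went from 0.45 to -0.31 (log2, vehicle). Thinning changed the difference in the share of cells with a count to -22.3 percentage points for Lpl, -5.15 for Nr0b2 and -0.777 for Apoe in TAL and to 20.4 for Lpl in DCT2. Apart from the number of samples or cells left in, the cause was not tested. Library size alone moved the median of all genes by -0.11 in TAL and 0.13 in DCT2 (log2). No paired analysis was possible because the libraries carry no replicate number of the labels. Depth limited Fabp1 in all classes, its highest ones included, and Apoe outside its highest classes, since few counts stood behind a level there.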
